A study of Mus musculus with 7 samples.

Results

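Mono is the cluster of donor cells that the study's deposited annotation calls by that name, the classical monocytes among the cells that entered the epidermis after bone marrow transplantation (BMT). It was taken as every cell carrying that cluster label in the annotation of the donor myeloid cells, which gave 938 of 11899 donor cells and of 18106 cells in the series. Donors were female CD45.1 C57BL/6 mice, and the hosts were male CD45.2 C57BL/6 mice that had been given a lethal dose of irradiation before the marrow. At 3 weeks, donor CD11b+MHCII+ cells were sorted from the epidermis of pooled mice and sequenced with a 10x Genomics 5′ kit, so cells outside that gate were not collected. In the labels, 3 donor libraries received the marrow (BMT 1, BMT 2 and BMT 3) and 1 received it plus T cells (BMT + T cells). The design text and the methods of the study instead describe every host as given marrow together with CD4 T cells and with Matahari CD8 T cells, which recognise a male antigen, so the label with no T cells and the text differ and the groups here follow the labels. Mono held 246 cells in BMT 1, 547 in BMT 2, 82 in BMT 3 and 63 in BMT + T cells.

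Classical monocytes leave the bone marrow carrying Ly6C and the chemokine receptor CCR2, and they enter inflamed tissue from the blood. There they lose Ly6C and can take on the genes of macrophages, dendritic cells or, in epidermis emptied of its own cells, Langerhans cells. Type I interferon switches on antiviral genes in them, and interferon-gamma switches on a partly separate set that includes guanylate-binding proteins and the T cell chemokine gene Cxcl9.

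Mono made up 9.56% of donor cells in BMT 1 (95% exact binomial interval 8.46 to 10.8%), 6.53% in BMT 2 (6.01 to 7.08%), 36.3% in BMT 3 (30.01 to 42.9%) and 8.76% in BMT + T cells (6.80 to 11.1%). BMT 3 alone stood high, and it was also the smallest library, with 226 donor cells. The BMT mean was 17.5% ± 16.4 (SD, n = 3), and the BMT + T cells value lay inside the BMT range. A comparison of 1 library with 3 cannot reach an exact permutation p below 0.25, so no test was made. Among the 4 monocyte clusters and the macrophage cluster alone, Mono took 12.7%, 12.0%, 55.0% and 19.7% in the same order of libraries. These intervals cover counting error only, and a share of sorted cells depends on the gate.

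Depth was similar in 3 of the libraries and lower in BMT 2. The median Mono cell held 10821 unique molecular identifiers (UMIs, counts of single RNA molecules) in BMT 1, 5382 in BMT 2, 10802 in BMT 3 and 11693 in BMT + T cells. Compared with the monocytes named for interferon-stimulated genes (ISG monocytes), Mono cells held fewer UMIs in 4 of 4 libraries, with a mean log2 difference of -0.42 ± 0.09 (SD), and a larger mitochondrial share in 4 of 4, with a log2 difference of 0.45 ± 0.34. The exact two-sided sign-flip permutation test gave p = 0.13 for each, the smallest value that 4 pairs allow. A total of 8 cell barcodes were shared between donor libraries, and 2 of the cells carrying them were Mono.

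The label was checked against its markers, which the clustering itself had used, so the levels are a description. Levels are mean UMIs per 10000 UMIs of a cell (CP10K), and they are given in the order BMT 1, BMT 2, BMT 3 and BMT + T cells throughout. Ly6c2, which encodes a Ly6C antigen, averaged 12.8, 14.2, 8.69 and 4.07 CP10K in Mono. Plac8, a small cysteine-rich protein of myeloid cells, averaged 19.8, 24.3, 13.8 and 5.38 CP10K. Lyz2, the lysozyme of myeloid cells, averaged 120, 48.4, 115 and 174 CP10K. Ly6c2 and Plac8 were thus highest in BMT 1 and BMT 2 and lowest in BMT + T cells, whereas Lyz2 was lowest in BMT 2 and highest in BMT + T cells. Reads of Ly6c2 and Lyz2 may be shared with their near-identical neighbours Ly6c1 and Lyz1.

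All 9 classical monocyte markers were above 0 in each library, and their summed level was 173, 106, 147 and 194 CP10K in Mono. Lyz2, at the levels given above, was the largest part of that sum in each library. The sum was highest in BMT + T cells, where Ly6c2 and Plac8 were lowest. The 9 macrophage markers, which include the complement genes C1qa, C1qb and C1qc and the mannose receptor gene Mrc1, summed to 24.9, 43.3, 76.9 and 93.4 CP10K. Folr2 was at 0 in all 4 libraries and Cd163 in BMT 1. Neutrophil markers summed to 4.47, 4.26, 0.716 and 1.12 CP10K, and non-classical monocyte markers to 0.747, 0.708, 4.38 and 1.76. Markers of T and NK cells, whose 6 listed genes summed to at most 0.131 CP10K, and of keratinocytes, at most 1.71, were close to 0.

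The share of cells that carried Ly6c2 or Plac8 differed between libraries. When each cell was thinned to 2000 UMIs, 15.2% of Mono cells in BMT 1 carried no UMI of Ly6c2 or Plac8 (36 of 237 cells, 95% exact binomial interval 10.9 to 20.4%). The share was 17.6% in BMT 2 (91 of 517, 14.4 to 21.2%), 42.9% in BMT 3 (33 of 77, 31.6 to 54.6%) and 60.0% in BMT + T cells (33 of 55, 45.9 to 73.0%). In Mrc1+ macrophages the share was 79.2%, 75.4%, 68.2% and 91.1%. The macrophage interval of BMT 3 (45.1 to 86.1%, 22 cells) overlapped that of Mono. In resident monocyte-derived Langerhans cells, which should lack both genes, the share was 97.5%, 94.8%, 100% and 98.5%. Before thinning, the median depth over all cells of that cluster was 10082, 7343, 18027 and 12852.5 UMIs. Many Mono cells of BMT 3 and BMT + T cells thus showed neither of 2 of the 3 markers of the name at this depth, and the cells are called Mono below, after their label. Thinning left out 52 shallower Mono cells, 9, 30, 5 and 8 by library.

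**Figure D1:**
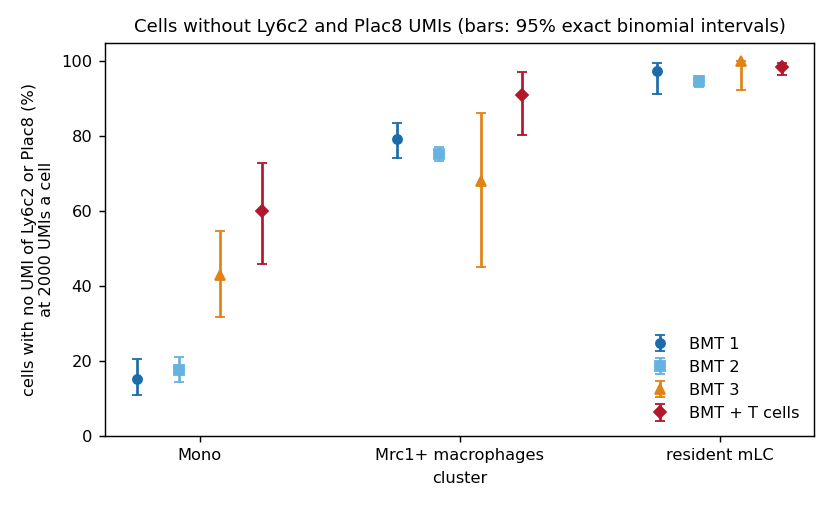
Percent of cells with no UMI of Ly6c2 or Plac8 after thinning to 2000 UMIs (vertical axis) in Mono, Mrc1+ macrophages and resident monocyte-derived Langerhans cells (mLC), one point per library with its 95% exact binomial interval. Mono stands at 15.2% and 17.6% in BMT 1 and BMT 2, and at 42.9% and 60.0% in BMT 3 and BMT + T cells, while resident mLC stand between 94.8% and 100%.

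Which genes set Mono apart from the other monocyte clusters and from macrophages was asked within each library. For each library and cluster of at least 20 cells, the mean CP10K of a gene was put on the scale log2(CP10K + 0.1), which understates changes of low genes, and the clusters were compared with limma with the library as a block. A gene was called at a log2 difference beyond 1 in either direction and a Benjamini-Hochberg adjusted p under 0.05 over all genes tested. The clusters had been made from these same values, so the calls describe the annotation and do not test that the clusters differ. With the library as a block, the p-values rest on how differences between clusters varied over the 4 libraries of pooled mice. That spread was estimated over all donor clusters of at least 20 cells.

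Against ISG monocytes, Mono was higher for classical monocyte genes and lower for antiviral and Langerhans cell genes, while no gene of the interferon-gamma list was called. Of 7267 genes, 123 were called (1.69%), 43 higher (0.592%) and 80 lower in Mono (1.1%), and BMT 3 gave no pair because it held 16 ISG monocytes. Of 24 tested genes of the classical monocyte list, 11 were higher and 0 lower, with a median log2 difference of 1.37 against 0.02 over all genes. Without BMT 2, 31 genes were called in all and 6 of the classical monocyte list were higher, and without BMT + T cells 57 were called in all.

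Ifitm6, of the interferon-induced transmembrane family, averaged 0.634, 0.985, 1.41 and 0.591 CP10K in Mono and 0.0029, 0.0262, 0.115 and 0 CP10K in ISG monocytes, and its log2 difference was 3.07 ± 0.30 (SE, limma adjusted p = 1.31e-06). Plac8 was higher by 2.79 ± 0.45 (adjusted p = 0.00101), against levels of 1.63, 3.30, 4.91 and 0.983 CP10K in ISG monocytes. Each Mono value of both genes lay above the ISG monocyte value of its own library. Lyz2 (log2 difference 2.44), the haptoglobin gene Hp (2.50) and the matrix proteoglycan gene Vcan (2.33) were also higher. So were the coagulation factor gene F13a1 (1.90) and Ly6c2 (1.5). After thinning, a Ly6c2 UMI was found in 68.8% of Mono cells and 40.3% of ISG monocytes in BMT 1, and in 72.9% and 33.4% in BMT 2. In BMT + T cells the shares were 30.9% (exact binomial interval 19.1 to 44.8%) and 24.2% (14.5 to 36.4%), so the intervals overlapped. Before thinning, the shares in BMT + T cells were 47.6% and 51.5%. The quiescence factor gene Klf2 was higher by 2.50, and Nr4a1, a nuclear receptor needed by patrolling monocytes, by 1.80. The monocyte chemoattractant gene Ccl7 was higher by 3.09 (adjusted p = 0.00191). Lyz1 was higher by 2.88, with 1.19, 1.78, 5.87 and 18.7 CP10K in Mono, and may share reads with Lyz2. Ly6a2 was higher by 2.84.

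Of 34 tested antiviral genes, 10 were lower in Mono and 0 were higher, with a median log2 difference of -0.89. Rsad2, which encodes the antiviral enzyme viperin, averaged 0.220, 0.463, 0.743 and 0.328 CP10K in Mono and 1.44, 4.35, 7.31 and 2.11 CP10K in ISG monocytes, a log2 difference of -2.43 ± 0.33 (SE, limma adjusted p = 7.22e-05). Ifit3 (log2 difference -2.0), Ifit1 (-1.84) and Oasl1 (-1.75) were also lower. The ubiquitin-like modifier gene Isg15 averaged 6.22, 4.25, 3.91 and 2.47 CP10K in Mono and 9.33, 8.13, 24.3 and 11.5 CP10K in ISG monocytes, and its difference of -1.28 ± 0.39 missed the threshold (adjusted p = 0.10). The antiviral count rested on BMT 2, without which 1 of the genes was called, and on BMT + T cells, without which 3 were. Their median stayed at -0.98 and -0.65.

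The interferon-gamma list gave 0 calls of 18 in limma, 2 at an unadjusted p under 0.05, and a median of 0.00. Gbp2, a guanylate-binding protein, averaged 10.9, 12.5, 4.87 and 2.62 CP10K in Mono and 5.62, 7.16, 6.89 and 5.31 CP10K in ISG monocytes. Cxcl9 averaged 26.1, 19.6, 0.975 and 2.76 CP10K in Mono and 12.4, 14.5, 16.4 and 7.23 CP10K in ISG monocytes. For both genes the Mono value lay above that of ISG monocytes in BMT 1 and BMT 2 and below it in BMT 3 and BMT + T cells.

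The start regions of 3 antiviral genes are shown because they carry the letters through which interferon acts on such genes. The interferon-stimulated response element was searched as GAAA, NN and GAAA in 1 run on both strands in the 250 bases before each start site, overlapping matches counted. It stood before 13 of 26 antiviral genes and 8 of 15 genes of the interferon-gamma list with a promoter in RefSeq (build GRCm38.p6), against 3.31% of 11387 promoters of listed genes. A match is a description of letters and not a bound site. The 150 bases before the start site are written 5′ to 3′ on the strand of the gene, with the matches in capitals. Isg15 (chr4:156200819-156200968, minus strand) held 3 overlapping matches, Ifit1 (chr19:34640739-34640888, plus strand) held 2 and Rsad2 (chr12:26456453-26456602, minus strand) held 1.
Isg15: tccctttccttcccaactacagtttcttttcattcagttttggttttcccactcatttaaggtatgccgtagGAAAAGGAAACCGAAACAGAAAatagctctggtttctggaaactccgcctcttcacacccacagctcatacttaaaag
Ifit1: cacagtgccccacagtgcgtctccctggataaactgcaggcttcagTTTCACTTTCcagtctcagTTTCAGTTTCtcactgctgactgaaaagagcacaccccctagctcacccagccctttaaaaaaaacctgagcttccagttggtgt
Rsad2: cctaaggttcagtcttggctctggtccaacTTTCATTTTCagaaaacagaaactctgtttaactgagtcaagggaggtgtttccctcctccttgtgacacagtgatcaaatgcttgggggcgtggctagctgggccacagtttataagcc

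Langerhans cell genes were also lower in Mono, with 7 of 15 lower and 0 higher, or 4 lower without BMT 2. Epcam, the adhesion molecule that marks Langerhans cells and their precursors, averaged 0.245, 0.345, 0.218 and 0.659 CP10K in Mono and 3.30, 3.81, 1.53 and 8.23 CP10K in ISG monocytes, a log2 difference of -3.47 ± 0.38 (SE, limma adjusted p = 1.58e-05). The 2 ranges did not overlap. H2-M2, a non-classical MHC class I gene, was also lower in Mono (-3.25, adjusted p = 2.91e-05). Of other genes, Kctd14 (-2.76), Zmynd15 (-2.60), Cd72 (-2.52), Ifit1bl1 (-2.40) and the amino acid transporter gene Slc36a2 (-2.38) had the next lowest values, and the integrin gene Itgax, which encodes CD11c, stood at -1.70. Of 19 complement and tissue macrophage genes, 4 were higher and 3 lower, but none was higher without BMT 2 or without BMT + T cells, and 1 was lower without BMT 1 or without BMT 2. Ms4a7 (-1.34), Cd63 (-1.29) and Axl (-1.85) were the lower genes, and Mrc1 (2.03), the transcription factor gene Maf (1.89), Selenop and Dab2 the higher ones. Mrc1 averaged 1.43, 6.87, 6.31 and 7.95 CP10K in Mono and 0.570, 2.28, 1.02 and 0.803 CP10K in ISG monocytes.

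Against Mrc1+ macrophages, Mono was higher for classical monocyte genes and for both interferon groups, and lower for macrophage, alternative activation and Langerhans cell genes. Of 7267 genes, 223 were called (3.07%), 89 higher (1.22%) and 134 lower in Mono (1.84%), with pairs in 4 libraries. The macrophages of BMT 3 were 45 shallow cells, with a median of 2214 UMIs. Mrc1, the gene in the name of that cluster, did not pass the test. It averaged 1.78, 9.07, 8.4 and 3.33 CP10K in the macrophages of BMT 1, BMT 2, BMT 3 and BMT + T cells against 1.43, 6.87, 6.31 and 7.95 CP10K in Mono, and its log2 difference was 0.03 ± 0.42 (SE, limma adjusted p = 0.976). Of 24 classical monocyte genes, 14 were higher and 0 lower, with a median log2 difference of 1.84 against -0.03 over all genes. Without BMT 2, 115 genes were called in all.

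Plac8 averaged 0.255, 1.07, 1.72 and 0.245 CP10K in the macrophages, below each Mono value, and its log2 difference was 4.28 ± 0.41 (SE, limma adjusted p = 8.22e-07). Ly6c2 averaged 1.24, 1.59, 1.45 and 0.526 CP10K in the macrophages, and was higher in Mono by 2.90 ± 0.27 (adjusted p = 1.88e-07). Hp (log2 difference 3.18), Ifitm6 (3.11), Ly6a2 (3.10) and Vcan (2.66) followed, each higher in 4 of 4 libraries. Ccr2, the receptor through which classical monocytes leave the marrow, was higher by 1.95 ± 0.31 (adjusted p = 0.000268). Its levels were 1.02, 0.984, 2.25 and 2.39 CP10K in Mono and 0.205, 0.301, 0.896 and 0.161 CP10K in macrophages, so the groups did not overlap. Lyz1 was higher by 3.72.

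Of 34 antiviral genes, 9 were higher in Mono and 0 lower, with a median of 0.73. Ifitm3, which blocks virus entry, averaged 24.1, 23.2, 29.9 and 13.1 CP10K in Mono and 3.04, 3.04, 4.53 and 2.42 CP10K in macrophages, a log2 difference of 2.73 ± 0.33 (SE, limma adjusted p = 2.34e-05). Isg15 was higher by 1.31 (adjusted p = 0.0238), whereas Rsad2 (0.22, adjusted p = 0.72) and Ifit1 (0.74, adjusted p = 0.23) missed the threshold. In the interferon-gamma list, 5 of 18 genes were higher and 0 lower, among them Gbp2 (1.25), Gbp5 (1.37) and the GTPase gene Iigp1 (1.44). Without BMT 2, 3 antiviral genes and 1 gene of the interferon-gamma list were called, without BMT 1 the latter list gave 3, and without BMT + T cells 14 antiviral genes were called.

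**Figure D2:**
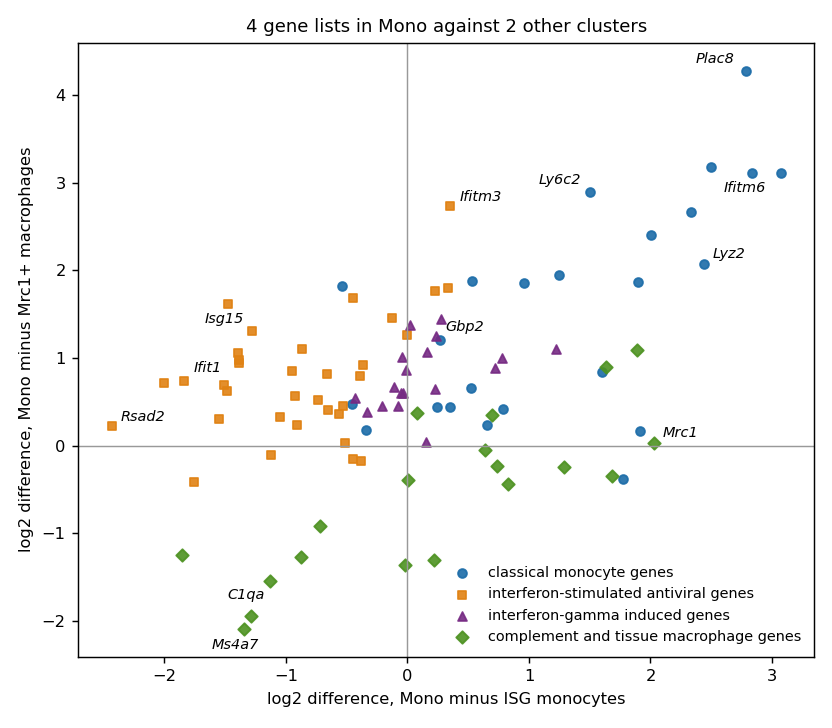
Log2 difference of Mono minus ISG monocytes (horizontal axis) and of Mono minus Mrc1+ macrophages (vertical axis) for the tested genes of 4 lists, one point per gene; both axes share the Mono libraries. Antiviral genes lie mostly left of 0 (median -0.89) and above it (median 0.73), and classical monocyte genes mostly in the upper right (medians 1.37 and 1.84).

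Among complement and tissue macrophage genes, 6 of 19 were lower in Mono and 1, Maf (1.09), was higher. C1qa averaged 6.32, 10.2, 16.4 and 23.0 CP10K in Mono and 42.2, 31.4, 24.4 and 55.8 CP10K in macrophages, a log2 difference of -1.54 ± 0.37 (SE, limma adjusted p = 0.0134). Its highest Mono value lay just under its lowest macrophage value. Ms4a7 (-2.09) and the tetraspanin gene Cd63 (-1.95) were also lower. In the alternative activation and lipid list, 7 of 24 were lower, among them the osteopontin gene Spp1 (-3.05), the elastase gene Mmp12 (-2.48), the collagenolytic cathepsin gene Ctsk (-2.47) and Cd9 (-1.56). Retnla, the resistin-like gene of alternatively activated cells, was the 1 higher gene (2.29, adjusted p = 0.0247), with 0, 1.80, 2.87 and 2.92 CP10K in Mono, and was higher in 3 of 4 libraries. The collagenase gene Mmp13 (-3.13), Mfge8 (-2.43), which bridges dying cells to phagocytes, H2-M2 (-3.56), Slc36a2 (-2.42), Zmynd15 (-2.40) and Pxdc1 (-2.27) were lower. In the Langerhans cell list 7 of 15 were lower and 0 higher. Without BMT 2, 2 complement genes, 4 genes of the alternative activation list and 3 Langerhans cell genes were lower, without BMT 1 the first 2 lists gave 3 and 4, and without BMT + T cells 4 Langerhans cell genes were lower. Maf was called higher only with BMT 2, BMT 3 and BMT + T cells all in the fit.

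Against Hmox1+ monocytes, named for the heme oxygenase gene, Mono was higher for antigen presentation and interferon-gamma genes and lower for heme and oxidative stress genes and for alternative activation and lipid genes, of which 10 of 24 were lower and 2 higher. Of 7267 genes, 483 were called (6.65%), 290 higher (3.99%) and 193 lower (2.66%), around a median of 0.15 over all genes. BMT 3 held 6 Hmox1+ monocytes and gave no pair.

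In the interferon-gamma list, 13 of 18 genes were higher and 0 lower, with a median of 1.71. Cxcl9 averaged 0.294, 0.721, 0 and 0.155 CP10K in Hmox1+ monocytes and was higher in Mono by 4.62 ± 0.71 (SE, limma adjusted p = 0.000309). Gbp2 was higher by 2.42 and Gbp8 by 2.86. Of 14 MHC class II presentation genes, 8 were higher and 1 lower. H2-Aa, a class II chain, averaged 106, 90.0, 91.7 and 125 CP10K in Mono and 46.9, 48.1, 21.5 and 42.9 CP10K in Hmox1+ monocytes, a log2 difference of 1.21 ± 0.12 (adjusted p = 1.25e-07). The groups did not overlap. Of 24 classical monocyte genes, 12 were higher, Plac8 by 1.81 and Ly6c2 by 1.17, and 1, the fibronectin gene Fn1, was lower (-1.43). Without BMT 2, 6 classical monocyte genes were higher. The chemokine genes Ccl8 (4.51) and Ccl5 (3.09), the lectin gene Mgl2 (3.18), the protease inhibitor gene Serpina3g (3.15), Calhm6 (3.28), Lyz1 (3.94) and Ly86 (2.93), whose product partners a Toll-like receptor homologue, were higher too.

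Spp1 averaged 0.649, 0.354, 0.142 and 0.0983 CP10K in Mono and 37.3, 27.0, 7.49 and 38.1 CP10K in Hmox1+ monocytes, a log2 difference of -6.36 ± 0.51 (SE, limma adjusted p = 1.49e-07). Podoplanin (Pdpn, -4.99), thrombospondin 1 (Thbs1, -4.64), cathepsin L (Ctsl, -4.19), the protease inhibitor Slpi (-4.14), the fungal lectin receptor Clec4d (-3.84), syndecan 1 (Sdc1, -3.64) and the vascular growth factor Vegfa (-3.54) were lower in Mono. Of 18 heme and oxidative stress genes, 6 were lower and 1 higher. Hmox1 itself averaged 1.12, 1.13, 2.88 and 2.16 CP10K in Mono and 9.01, 7.16, 17.5 and 21.0 CP10K in Hmox1+ monocytes (-2.72). Arg1, the arginase gene of repair macrophages, was lower in Mono (-3.43, adjusted p = 0.00293).

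Against S100a+ monocytes, Mono was lower for S100a8, S100a9 and other genes of neutrophils. The comparison rested on the 594 S100a+ cells of BMT 2, since BMT 1 held 11, BMT + T cells 9 and BMT 3 none. With 1 library on that side there was no replicate check, limma took the spread from the other clusters and libraries, and the calls compare clusters of that library. Of 7267 genes, 97 were called (1.33%), 23 higher (0.316%) and 74 lower (1.02%), around a median of 0.12. S100a9, a subunit of the neutrophil protein calprotectin, averaged 0.810 CP10K in Mono of BMT 2 and 247 CP10K in its S100a+ monocytes, a log2 difference of -8.09 within that library. The fitted difference, which also draws on Mono of the libraries without that pair, was -8.78. Of the 97 called genes, 97 had the same direction within BMT 2 and 87 differed there by more than 1. The values that follow are fitted ones. S100a8 (-6.80), Retnlg (-8.08), Cstdc4 (-6.19), Stfa2l1 (-5.54), the histamine enzyme gene Hdc (-4.87), the gelatinase gene Mmp9 (-4.86) and Wfdc21 (-4.81) were lower as well. In the neutrophil-like monocyte list 4 of 8 genes were lower and 0 higher. Lyz1 (4.08), Lyz2 (2.45), Vcan (2.17), Calhm6 (1.94), the actin-binding gene Tmsb10 (1.89), Nupr1 (1.82), the complement gene C4b (1.68) and Ptpn18 (1.51) were higher in Mono.

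Whether Mono differed between the labels was asked with BMT + T cells against the 3 BMT libraries, with limma taking the lone library to vary like the others. Of 6878 genes, 0 were called (0%), and 709 had an unadjusted p under 0.05. The lowest adjusted p belonged to Ccl24, an eosinophil chemoattractant, which averaged 9.04, 20.8 and 9.82 CP10K in Mono of the BMT libraries and 0.191 CP10K in BMT + T cells, a log2 difference of -5.41 ± 0.51 (SE, adjusted p = 0.0553). The lone value lay far under the BMT range. Ccl24 was called when BMT 1 was left out (-5.63, adjusted p = 0.0159) and when BMT 2 was (-5.03, adjusted p = 0.00383). The dendritic cell chemokine gene Ccl17 averaged 13, 9.74 and 3.72 CP10K against 0.201 CP10K (-4.72, adjusted p = 0.17), and the replication gene Top2a 0.0939, 0.102 and 0.126 CP10K against 0.748 CP10K (2.04, adjusted p = 0.20).

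BMT 3 resembled BMT + T cells more than BMT 1 or BMT 2 in many genes. The short library names fall into pairs, DM1 and DM2 for BMT 1 and BMT 2, and DMBMT and DMBMTT for BMT 3 and BMT + T cells. The study describes its donor cells as a pair of combined sorting and sequencing experiments on pooled mice, and states that keratinocytes were sorted from the same epidermal samples as a later set of donor cells. The keratinocyte libraries are named KCBMT and KCBMTT, with the endings of DMBMT and DMBMTT, but no source used here says outright which libraries belonged to one experiment. This comparison of pairs was chosen after the values were seen, so its tests are descriptive. Between the pairs, 520 of 6878 genes were called (7.56%), 273 higher (3.97%) and 247 lower (3.59%) in BMT 3 and BMT + T cells. The pairs did not overlap for 54% of all genes tested. With so few libraries in each pair, genes can separate by order alone, so that share is a description and was not tested.

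**Figure D3:**
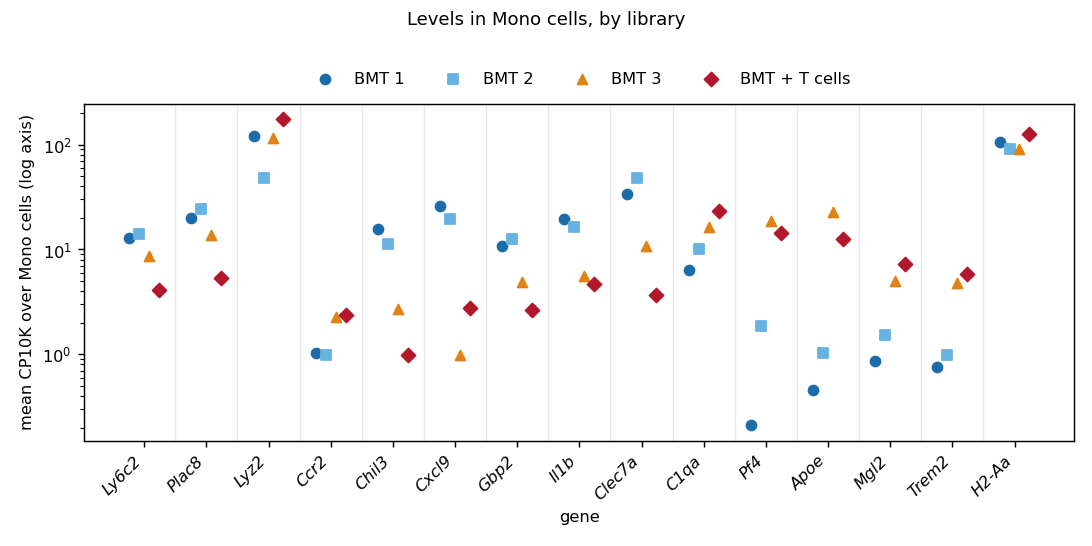
Mean CP10K over Mono cells (vertical log axis) for 15 genes, one point per library. Ly6c2 falls from 12.8 and 14.2 in BMT 1 and BMT 2 to 8.69 and 4.07 in BMT 3 and BMT + T cells, Chil3, Cxcl9, Il1b and Clec7a lie lower in the latter 2 libraries, and C1qa, Pf4, Apoe, Mgl2 and Trem2 lie higher, whereas H2-Aa stands between 90.0 and 125 in all 4.

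Genes of tissue macrophages were higher in Mono of BMT 3 and BMT + T cells, with a list median of 0.97 against 0.11 over all genes. The list of dendritic cell-like monocytes was not shifted as a whole, with a median of 0.17 and 11 of 17 genes above 0. In that list 5 genes were called higher and 1 lower, or 3 higher without BMT 1 or without BMT 2. Apoe, the lipid carrier of macrophages, averaged 0.457, 1.03, 22.9 and 12.7 CP10K, a log2 difference of 4.43 ± 0.38 (SE, limma adjusted p = 0.000517). Tmem176b (3.06), Cbr2 (3.04), the growth factor gene Igf1 (2.87) and the hemoglobin scavenger receptor gene Cd163 (2.83) followed. Trem2, a lipid receptor of macrophages, averaged 0.756, 0.983, 4.82 and 5.79 CP10K (2.48), and Mgl2 averaged 0.858, 1.53, 5.0 and 7.33 CP10K (2.30). For each of these genes both Mono values of the second pair lay above both of the first. Apoe was not raised in Mono alone. Before thinning, an Apoe UMI was found in 12.3%, 18.3%, 75% and 33.8% of ISG monocytes, of which BMT 3 held 16. In Mrc1+ macrophages the share was 29.3%, 24.5%, 28.9% and 61.6%, so BMT 3 did not stand apart there. Of 20 complement and tissue macrophage genes, 7 were higher and 2 lower, with C1qb at 8.65, 11.3, 27.7 and 32.7 CP10K (1.60). Pf4, the platelet factor 4 gene, averaged 0.210, 1.88, 18.7 and 14.3 CP10K and missed the threshold (4.40 ± 1.22, adjusted p = 0.21).

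The classical monocyte list was mixed, with 2 of 25 genes higher and 5 lower. With a library left out the counts moved, to 3 higher and 2 lower without BMT 1, 3 and 1 without BMT 2, 4 and 8 without BMT 3 and 3 and 4 without BMT + T cells. Chil3, a chitinase-like protein gene of myeloid cells, averaged 15.8, 11.2, 2.70 and 0.975 CP10K (-2.95 ± 0.42 (SE), limma adjusted p = 0.00636). Vcan (-1.50) and Ly6c2 (-1.16) were lower, Plac8 missed the threshold (-1.34, adjusted p = 0.082), and Ccr2 (1.13) and F13a1 (2.22) were higher. Chil3 may share reads with its near-identical copy Chil4.

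Genes induced by interferon-gamma were lower in BMT 3 and BMT + T cells, with 8 of 18 lower and 0 higher. Cxcl9 had a log2 difference of -3.70 ± 0.42 (SE, limma adjusted p = 0.00276), and Socs1 (-2.10), Gbp5 (-1.89) and Gbp2 (-1.68) were lower too. The receptor chain gene Ifngr1 was higher, at 1.70, 1.97, 6.67 and 5.14 CP10K (1.63). Cxcl9 was also found in fewer cells of other clusters in BMT 3 and BMT + T cells. Before thinning, a Cxcl9 UMI was found in 73.2%, 58.5%, 14.6% and 12.7% of Mono cells. The share was 49.4%, 45.5%, 8.89% and 15.1% in Mrc1+ macrophages and 13.3%, 21.9%, 1.96% and 3.75% in resident mLC. Of the antiviral list, 2 of 33 were higher and 0 lower, and without BMT 3 these counts were 1 and 5. The interleukin 1 beta gene Il1b averaged 19.5, 16.3, 5.56 and 4.69 CP10K (-1.79), the fungal receptor gene Clec7a averaged 33.9, 47.9, 10.8 and 3.68 CP10K (-2.65), and 7 of 9 genes of the neutrophil-like monocyte list were lower, among them S100a8 (-2.51). The endothelin gene Edn1 (-3.67), the placental growth factor gene Pgf (-3.23), Serpina3g (-2.98) and the activation antigen gene Cd69 (-2.96) had the lowest values after Cxcl9 among the called genes.

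Of 13 cell cycle genes, 5 were higher and 0 lower, with Stmn1, a tubulin-binding protein of dividing cells, at 0.0506, 0.133, 0.671 and 1.63 CP10K (2.62). By the deposited cell cycle calls, 96.3%, 92.7%, 90.2% and 79.4% of Mono cells were in G1. In Mrc1+ macrophages the share was 89.6%, 83.2%, 80% and 72.6%, and in resident mLC 68.6%, 65%, 70.6% and 72.5%. The deposited latent time, a position from 0 to 1 along the authors' velocity ordering, had a Mono median of 0.207, 0.244, 0.307 and 0.313. Its medians were 0.518, 0.517, 0.638 and 0.641 in resident mLC and 0.159, 0.184, 0.209 and 0.213 in ISG monocytes. In Mrc1+ macrophages they were 0.234, 0.269, 0.34 and 0.256. Higher latent time in BMT 3 and BMT + T cells was thus not particular to Mono, though not every cluster showed it. Both measures were computed by the authors from the same cells, and free RNA can enter the cycle calls.

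The only BMT + T cells library sits in the second pair, so a difference between labels could not be measured apart from single libraries. Within the BMT label, with BMT + T cells left out, BMT 3 differed from BMT 1 and BMT 2 in 622 genes, of which 403 were among the 520. That fit, too, takes a lone library to vary like the others. All its libraries are also in the pair comparison, so much of the overlap was built in. With the pair as a term, the label contrast is BMT + T cells against BMT 3, 1 library each, with the spread taken from BMT 1 against BMT 2. It called 307 genes, 153 higher and 154 lower in BMT + T cells, and compares those libraries and not the conditions. Without BMT 3, 897 were called, and that fit is at once the label and the pair comparison. Without BMT 1, 260 genes were called between the pairs. With a library left out, the pairs gave 4 to 13 higher complement and macrophage genes, 4 to 8 lower neutrophil-like genes, 5 to 10 lower interferon-gamma genes and 2 to 6 higher cell cycle genes. The pair difference in Mono departed from that in Mrc1+ macrophages for 3 of 7345 genes (0.0408%) in limma, for Ccl8 and Igf1 upwards (0.0272%) and for S100a9 downwards (0.0136%). In that fit 759 genes had an unadjusted p under 0.05, so the uncalled genes are not shown to move alike.

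Mono cells were then split within each library by whether the cell, thinned to 2000 UMIs, carried a UMI of Ly6c2 or Plac8. The split was chosen after the values were seen, its line is a range and not a border between types, and 35, 39, 13 and 7 of the cells with a UMI carried exactly 1. No test was made, since genes that accompany Ly6c2 must differ by construction. Cells with a UMI had Ly6c2 levels of 15.0, 16.7, 15.0 and 10.2 CP10K, levels that the choice of cells by this gene partly sets. Median depth was lower in them in every library, at 10809, 5338.5, 10424 and 11495 UMIs against 12190.5, 6788, 14315 and 12184 UMIs in cells without.

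Cells with Ly6c2 or Plac8 had higher means in 4 of 4 libraries for 17 of the other 23 classical monocyte genes, for 22 of 37 antiviral genes and for 7 of 21 genes of the interferon-gamma list. No gene of these 3 lists was lower in 4 of 4. Over the 6876 genes tested between the pairs, apart from Ly6c2 and Plac8, 9.8% were higher and 10.3% lower in 4 of 4. Ifitm6 averaged 0.772, 1.21, 2.32 and 1.54 CP10K in them and 0.0215, 0.0366, 0.415 and 0.103 CP10K in cells without. Hp averaged 2.16, 1.49, 1.69 and 3.26 CP10K against 0.218, 0.128, 0.460 and 0.269. Of 7 markers of non-classical monocytes, 6 were higher in cells with a UMI in 4 of 4 libraries, and Spn was in 3. Ace averaged 0.0598, 0.120, 1.65 and 0.735 CP10K in cells with a UMI and 0, 0, 0.271 and 0 CP10K in cells without. Adgre4, at 0.145, 0.114, 0.845 and 0.233 against 0, 0.110, 0.760 and 0.214 CP10K, differed little in 3 of the libraries.

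Cells without either gene had higher means in 4 of 4 libraries for 9 of 23 complement and tissue macrophage genes, 8 of 20 genes of dendritic cell-like monocytes, 6 of 16 class II presentation genes and 9 of 19 cell cycle genes, and no gene of these 4 lists was lower in 4 of 4. Mgl2 averaged 1.97, 5.0, 9.38 and 9.02 CP10K in them against 0.670, 0.825, 1.73 and 2.77 CP10K in cells with a UMI. C1qa averaged 12.3, 22.2, 23.4 and 25.3 CP10K against 5.44, 7.76, 12.7 and 17.6. H2-Aa averaged 136, 119, 113 and 136 CP10K against 102, 85, 78.0 and 121. The C1qa level of cells without in BMT 1 lay below that of cells with a UMI in BMT 3. Ccl17 averaged 48.5, 24.5, 4.32 and 0.383 CP10K in cells without and 6.96, 7.10, 3.70 and 0 CP10K in cells with a UMI, so its gap was wide in BMT 1 and BMT 2 and narrow in BMT 3. Stmn1 averaged 0.0430, 0.300, 1.21 and 2.55 CP10K against 0.0281, 0.0846, 0.0940 and 0.0857.

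**Figure D4:**
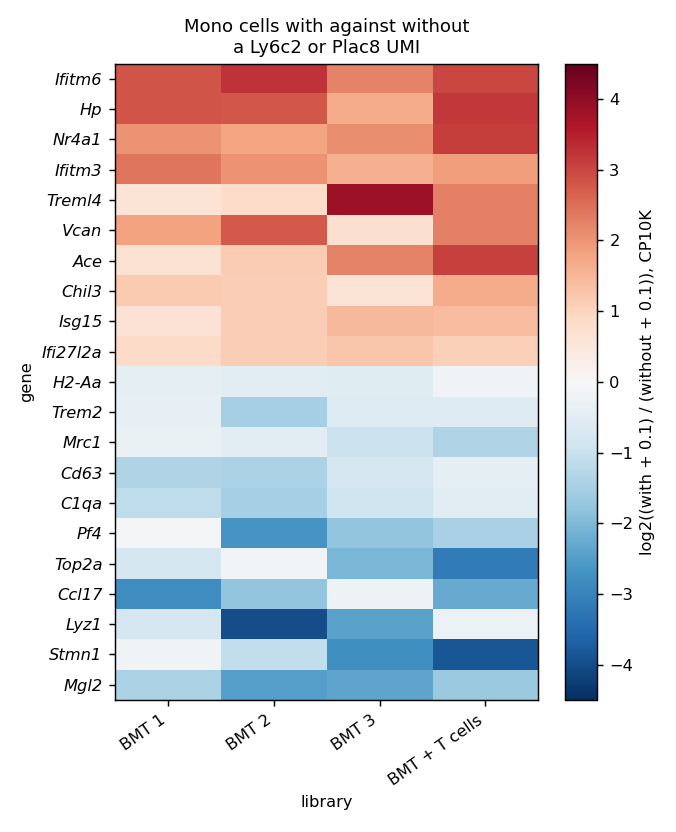
Log2 ratio of mean CP10K + 0.1 in Mono cells with a UMI of Ly6c2 or Plac8 to that in Mono cells without one (colour, red for higher with), for 21 genes (rows) in each library (columns). Ifitm6 and Hp are red and Mgl2, C1qa and H2-Aa blue in all 4 libraries, while Pf4 is near 0 in BMT 1 and Stmn1 is palest there.

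For 4 genes that differed between the library pairs, the levels were compared on each side of the split. Apoe averaged 0.547, 0.801, 24.5 and 8.93 CP10K in cells with a UMI and 0.0703, 2.31, 23.4 and 11.6 CP10K in cells without. Cxcl9 averaged 24.8, 19.6, 0.882 and 3.10 CP10K with and 35.1, 20.4, 1.25 and 0.543 CP10K without. Chil3 averaged 16.7, 12.1, 3.40 and 1.47 CP10K with and 7.33, 5.58, 2.18 and 0.396 CP10K without. Il1b averaged 20.4, 15.9, 9.87 and 12.2 CP10K with and 17.2, 18.3, 0.657 and 0.582 CP10K without. For each of these genes, both values of the second pair differed from both of the first in the same direction in each set of cells. The gap of Il1b was wider in cells without a UMI. These 4 genes do not stand for all: the pair gap of Stmn1, by the levels given above, lay almost wholly in cells without a UMI.

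Across Mono cells, the genes most like Ly6c2 were ranked by the mean over the 4 libraries of the Spearman coefficient within each library, among 2111 genes with at least 0.5 CP10K in Mono of every library. The points share a library and its depth, and the coefficients describe these cells only. Plac8 (0.59) and Ifitm3 (0.59) led, followed by Tmsb10 (0.48), Ifi27l2a (0.45), Hp (0.44), Ly6e (0.40), Gm9733 (0.40) and the signalling adaptor gene Tyrobp (0.40). Plac8 ranged from 0.52 to 0.74 over the libraries. At the other end stood Mgl2 (-0.36), the class II genes H2-Eb1 (-0.34), H2-Ab1 (-0.32) and H2-Aa (-0.30), the invariant chain gene Cd74 (-0.28), Mrc1 (-0.28), Ptms (-0.27) and C1qa (-0.26). Cd74 ranged from -0.38 in BMT 1 to -0.06 in BMT + T cells.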

How the data were processed

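Donor CD11b+MHCII+ cells from 4 libraries were analysed. Per the submitters' processing notes and the study's methods, reads were quantified with kallisto and bustools (build GRCm38), cells were processed and clustered in Seurat, and doublets were removed with DoubletFinder, so no doublet search was made here. The methods state removal of cells under 500 genes or over 20% mitochondrial reads, yet 1 Mono cell lay under 500 and 4 lay over 20%. The authors deposited the natural log of 1 plus UMIs per 10000 for 15155 genes, and the listed genes covered 91.3% of all UMIs in the median cell. They also deposited the mitochondrial percent, the cluster and cycle calls, pseudotime and UMAP values as scores, and latent time as a fraction. Values were turned back to UMIs, and 100% of 28329689 were whole within 0.001.

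The unit of testing was the library and cluster (at least 20 cells): linear mean CP10K, log2(CP10K + 0.1), a filter at a mean of 0.1 CP10K, limma 3.58.1 with trend and robust in R 4.3.3, all clusters in 1 fit, library as block. The methods tested single cells, which are not replicates. Benjamini-Hochberg adjustment ran over all genes tested, and calls needed an adjusted p under 0.05 and a log2 difference beyond 1. Cells were thinned to 2000 UMIs with a fixed seed. Depth per library is given in the results, and 7704002 UMIs lay behind Mono. Nothing in the labels says which libraries came from separate pools of mice, so the spread behind the p-values may be technical. For comparisons of clusters it is the spread of cluster differences over libraries, and within Mono it is the spread between libraries.

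Named genes were the 8 called genes with the largest difference in each direction that moved alike in every paired library, leaving out predicted and ribosomal genes (5 for the library pairs), plus members of gene lists. The members and lists were chosen with earlier results of these data known. On simulated counts with 200 changed genes, 100% of 4-fold changes were recovered against ISG monocytes and macrophages, 99% against Hmox1+ monocytes, 86% against S100a+ monocytes, 83% between labels and 98% between library pairs, with 0, 0, 4, 2, 13 and 9 false calls. Apart from depth and the changed genes, the simulated libraries and clusters shared a common profile with independent noise. These rates hold for that setting and do not measure recovery in the real libraries. Alternatives covered left-out libraries, pseudocount, filter, kind of mean, cell minimum, block, fold threshold and depth. Keratinocyte and host libraries were not used here. Promoters were from RefSeq. A gene of these lists is not reported here by name.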

Additional observations from a re-analysis of the deposited data

Results flagged for a closer look

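For 3 genes, the difference between the library name pairs (BMT 3 and BMT + T cells minus BMT 1 and BMT 2) was not the same in Mono as in Mrc1+ macrophages, by the interaction term of a limma fit over 7345 genes (3 called, 0.0408%). The comparison was chosen after the values were seen, and the cause was not tested. An unadjusted limma p under 0.05 was found for 759 genes, so the uncalled genes are not shown to move alike. Ccl8, a monocyte and T cell chemoattractant, averaged 1.60, 9.18, 10.6 and 13.8 CP10K in Mono and 1.49, 6.82, 0 and 0.513 CP10K in macrophages, an interaction of 5.36 ± 0.73 on the log2 scale (SE, limma adjusted p = 0.0463). Igf1 averaged 0.0784, 0.164, 1.52 and 1.47 CP10K in Mono and 0.780, 0.682, 0.50 and 0.220 CP10K in macrophages (3.80 ± 0.46, limma adjusted p = 0.0440). S100a9 averaged 0.0822, 0.810, 0 and 0.0749 CP10K in Mono and 0.0613, 1.38, 1.55 and 5.73 CP10K in macrophages (-4.29 ± 0.56, limma adjusted p = 0.0463). The macrophage cluster of BMT 3 held 45 cells with a median of 2214 UMIs, and at a pseudocount of 0.01 no gene was called.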

How the results depend on the processing

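Against ISG monocytes (123), the count was 30 at a pseudocount of 1, 18 with the mean of the deposited log values, 62 with only the compared clusters in the fit, 27 at a fold threshold of 2, 64 with thinned cells, and 31 to 144 with a library left out, the lowest without BMT 2 and 57 without BMT + T cells. Against macrophages (223), it was 38, 25, 112 and 30 under the first 4 of these and 115 to 227 with a library left out, the lowest without BMT 2. Against Hmox1+ monocytes (483), it was 835 at a pseudocount of 0.01 (621 of them higher), 98 at 1, 67 with log means and 65 at a fold threshold of 2. Against S100a+ monocytes (97), it was 57 at either pseudocount, 53 with log means, 160 with at least 50 cells, 54 at a fold threshold of 2 and 16 with thinned cells; leaving out BMT 2 or fitting only the compared clusters gave no value. Between the labels (0), it was 2 at a pseudocount of 0.01, 6 with thinned cells, 307 with the library name pair as a term (1 library against 1) and 1 to 897 with a library left out (2 without BMT 1, 1 without BMT 2 and 897 without BMT 3). Between the name pairs (520), it was 96 at a pseudocount of 1, 220 without the filter, 83 with log means, 58 at a fold threshold of 2, 248 with thinned cells and 260 to 897 with a library left out, the lowest without BMT 1 and the highest without BMT 3. The interaction (3) gave 0 at a pseudocount of 0.01 and 17 with log means. Without the replicate block, 87, 150, 378 and 70 genes were called against the 4 clusters. The share of Mono in BMT + T cells minus the BMT mean was -8.70 points and ran from -14.2 without BMT 2 to 0.717 without BMT 3. Against macrophages, with a library left out, the log2 difference in UMIs (0.53) ran from -0.0557 without BMT 3 to 0.839, that in genes (0.29) from -0.0506 without BMT 3 to 0.469, and that in mitochondrial share (-0.05) from -0.205 to 0.200 without BMT 3, and the last was 0.155 with thinned cells. Against ISG monocytes, the difference in genes per cell (-0.23) became 0.0228 with thinned cells. The cause of these changes was not tested.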
